A study of Homo sapiens with 6 samples.

Results

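GATA1 and 4 other regulators of red cell and platelet precursors, ZFPM1, GFI1B, NFE2 and KLF1, were examined for accessible chromatin in DAMI cells with and without silencing of HMGA1. The peaks were those that overlapped 5 fixed windows of the hg19 genome: chrX:48630000-48670000 for GATA1, chr16:88480000-88620000 for ZFPM1, chr9:135800000-135900000 for GFI1B, chr12:54670000-54720000 for NFE2 and chr19:12980000-13010000 for KLF1. The windows span 360 kb in all. They held 44 of the 112610 peaks of the shHMGA1 list and 48 of the 127153 peaks of the control list, or 92 of 239763 peaks in both lists. No peak crossed the edge of a window.

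These genes encode transcription factors and a cofactor that act together. GATA1 is the zinc finger protein that binds GATA sites in erythroid and megakaryocyte genes, and ZFPM1 (also called FOG1) is its cofactor, which binds GATA1 rather than DNA. GFI1B is a zinc finger repressor needed in both lineages, NFE2 is the blood-restricted subunit of the NF-E2 dimer and is needed for platelet formation, and KLF1 is the erythroid activator that binds CACCC boxes, as in the adult β-globin promoter.

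DAMI is a human leukaemia line, labelled here as MPN/AML leukaemic cells. The labels give 3 samples infected with a lentivirus carrying a short hairpin against HMGA1 (shHMGA1), an architectural protein that binds AT-rich DNA, and 3 infected with a control lentivirus (Con). The assay was ATAC-seq, which finds open chromatin from the places where the Tn5 transposase can insert, and the deposited result is 1 peak list per group. The lists cannot show how far HMGA1 itself was silenced. With 1 list per group there is no replicate check and no test, peak number and width depend on a read depth that is unknown, and whether a site missing from a list was closed or only missed the threshold cannot be told apart.

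Most accessible sites at the 5 loci were called in both shHMGA1 and control cells. The peaks formed 48 sites, of which 39 were present in both lists, 2 were called in shHMGA1 only and 7 in control only. Of the shHMGA1 peaks, 42 of 44 (95.5%, exact 95% interval 84.5 to 99.4) overlapped a control peak by at least 1 bp, and of the control peaks 41 of 48 (85.4%, interval 72.2 to 93.9) overlapped an shHMGA1 peak. Unshared peaks thus made up 4.55% of shHMGA1 and 14.6% of control peaks at the loci, against 14.8% and 24.9% over the whole lists. The whole-list shares of shared peaks, 85.2% for shHMGA1 and 75.1% for control, lay inside the intervals of the loci. The intervals cover counting error only and treat neighbouring peaks as independent. Sharing depended on how overlap was defined: when the overlap had to span 50% of each peak, 70.5% of shHMGA1 and 64.6% of control peaks were shared, against 70.4% and 62.3% over the whole lists (29.6% and 37.7% unshared). Under that rule the shares at the loci lay near those of all peaks.

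The loci were rich in peaks under both conditions. Peak density was 12.2 per 100 kb in shHMGA1 and 13.3 per 100 kb in control cells, against 3.7 and 4.17 per 100 kb over the full length of chromosomes 1 to 22 and X. The windows were chosen around genes and include starts of neighbouring genes. Windows around other genes were not counted, so this density is not shown to be particular to these loci. Peaks covered 13.7% of the windows (49.3 kb) in shHMGA1 and 14.8% (53.4 kb) in control cells. Median width was 780 bp in shHMGA1 and 834 bp in control, against 539 and 525 bp over the whole lists. The ratio of shHMGA1 to control peaks was 0.917 at the loci and 0.886 over the lists, and the ratio of covered bases was 0.922 and 0.909.

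**Figure D1:**
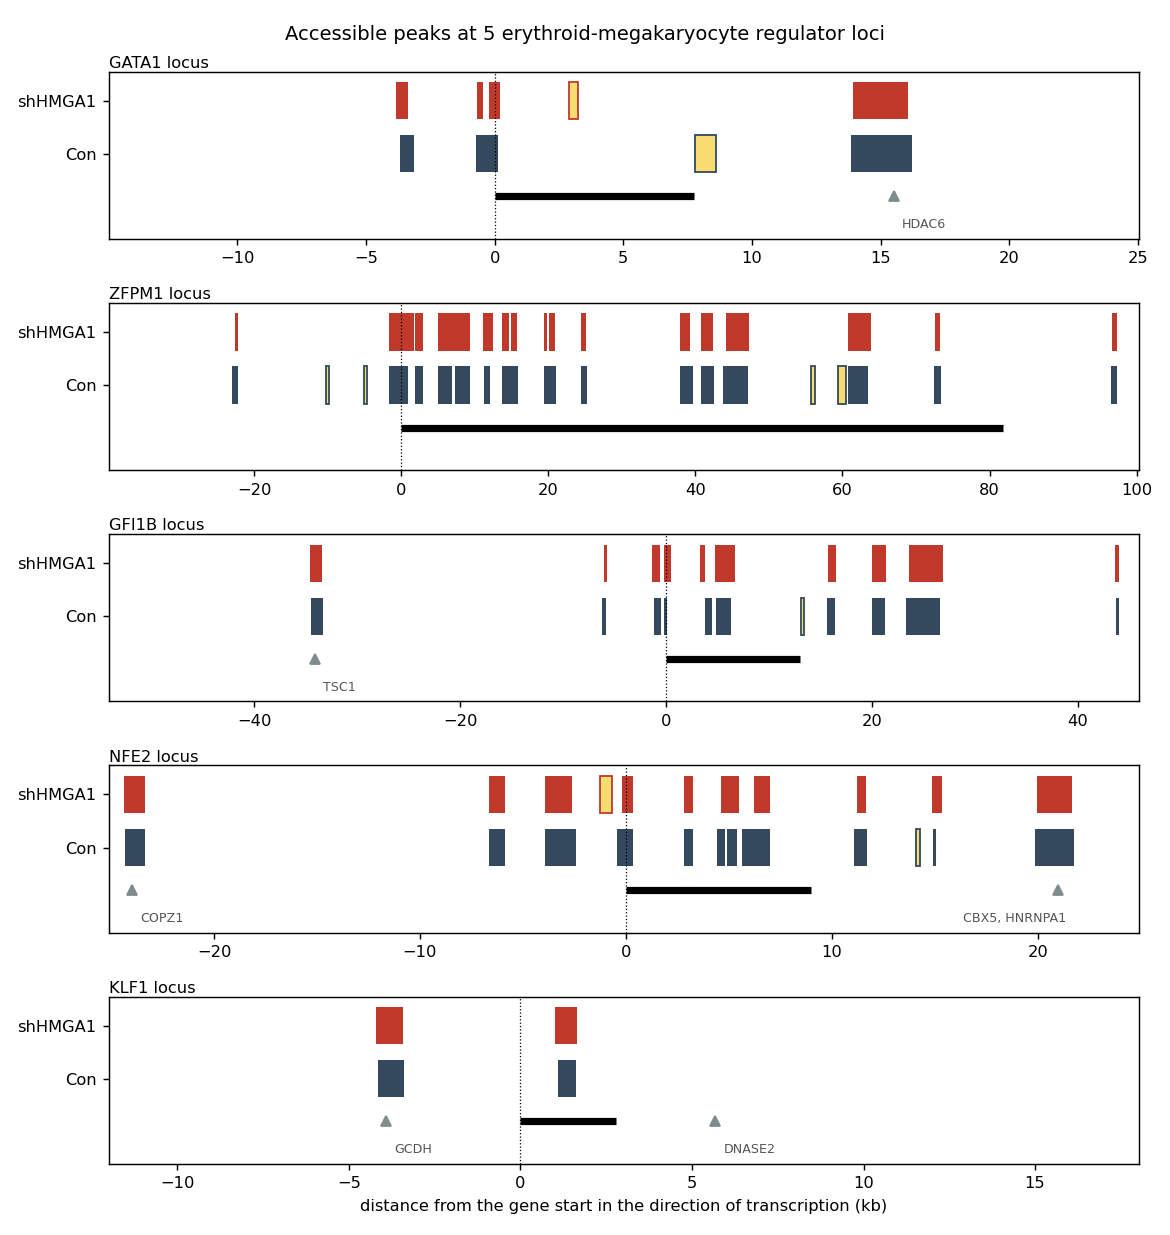
Peaks at each locus, with shHMGA1 above Con. The horizontal axis is the distance from the gene start in kb, in the direction of transcription; black bars are the member genes, grey triangles the starts of neighbouring genes, solid boxes peaks shared between the lists and yellow boxes the 9 unshared peaks. Boxes recur at nearly the same places in both rows, and no box meets the dotted line at the KLF1 start.

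**Figure D2:**
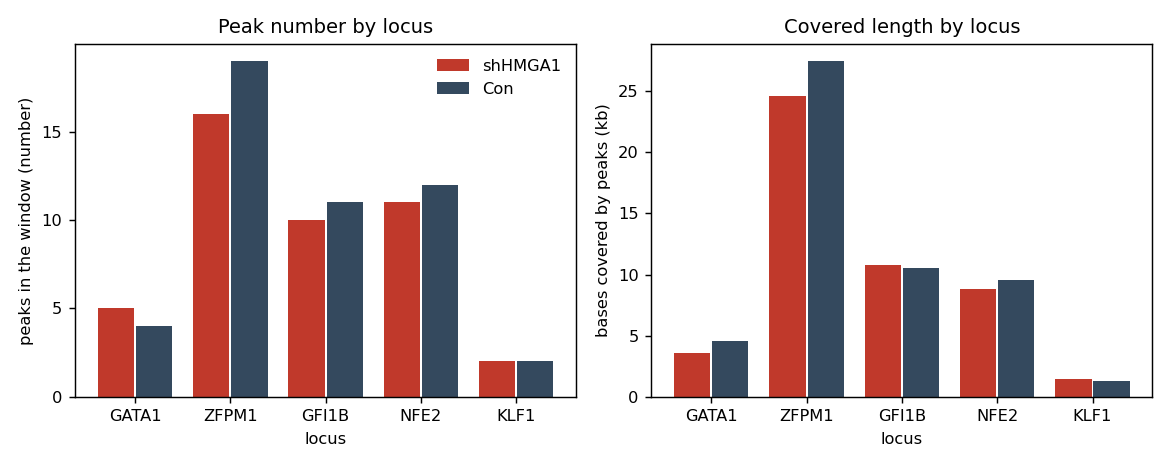
Number of peaks (left) and kb covered by peaks (right) in each window, with 1 bar per list and no error bars because each group has 1 list. ZFPM1 has the most peaks (16 in shHMGA1 and 19 in Con) and KLF1 the fewest (2 in each). The windows differ in length, with 140 kb for ZFPM1 and 30 kb for KLF1, and the bars are not adjusted for it.

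GATA1 was accessible at its start and at an upstream site in both lists, and the arrangement of its peaks differed. The window held 5 peaks in shHMGA1 (covering 3578 bp) and 4 in control (4601 bp), with 58.8% of the bases covered in either list common to both. At the gene start, shHMGA1 had a peak of 424 bp (chrX:48644768-48645191) and, across a gap of 250 bp, a second of 214 bp (chrX:48644304-48644517), where control had a single peak of 842 bp (chrX:48644265-48645106). The peak caller's area under the significance curve, the authors' own value, was 895 and 375 for the shHMGA1 peaks and 1495 for the control peak. Such areas grow with width and depth, so each was read only by its rank in its own list. The shHMGA1 peak over the start was in the top 37.9%, the second in the top 69.3% and the control peak in the top 24.3%.

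The promoter of GATA1 from RefSeq (GRCh38.p14, plus strand, chrX:48786340-48786639, coordinates not comparable with hg19) is shown because peaks of both lists covered the start. It runs from 250 bases before to 50 after the start, and capitals mark the letters CACCC on either strand, the core of the boxes that KLF proteins bind.
GATA1: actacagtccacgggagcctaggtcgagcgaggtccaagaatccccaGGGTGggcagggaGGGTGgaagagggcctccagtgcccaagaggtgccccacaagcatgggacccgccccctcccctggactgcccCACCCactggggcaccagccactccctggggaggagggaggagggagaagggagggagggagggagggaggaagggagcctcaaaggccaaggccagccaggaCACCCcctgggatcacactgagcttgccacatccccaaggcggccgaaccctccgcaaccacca
Of its 4 CACCC matches, those on the gene's strand begin 117 and 14 bases before the start, and those on the opposite strand begin 203 and 190 bases before it. CACCC occurred in 59.9% of 35116 RefSeq promoters of this length, so a match is common. Neither AGATAA nor TGATAA, forms of the site that GATA proteins bind, occurred on either strand of this window. Matching letters do not show binding.

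An upstream site of GATA1 had its summit at the same base in both lists, 3447 bp before the start. It measured 475 bp in shHMGA1 (area 580, top 52.2% of its list) and 544 bp in control (area 1377, top 26.1%). In the mouse, an enhancer a few kb upstream of Gata1 is known to drive its expression in blood cells; the files do not show what the human site does. A weak peak inside the gene, 331 bp wide with its summit 3118 bp after the start (area 274, top 83.7%), was called in shHMGA1 only, with the nearest control peak 2762 bp away. A peak of 845 bp bordering the 3′ end of the gene, with its summit 8514 bp after the start (chrX:48652746-48653590, area 840, top 39.1%), was called in control only. The widest and strongest peak of the window lay at the start of the neighbouring gene HDAC6, a deacetylase. It measured 2134 bp (area 11127, top 1.51%) in shHMGA1 and 2370 bp (area 12563, top 1.12%) in control.

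ZFPM1 carried the longest run of accessible sites, spread over its gene body. Its window held 16 peaks covering 24641 bp in shHMGA1 and 19 peaks covering 27481 bp in control, with 74.8% of covered bases common. Each of the 16 shHMGA1 peaks overlapped a control peak. Over the gene start lay a broad peak of 3403 bp in shHMGA1 (chr16:88518009-88521411, area 9734, top 2.15%) and 2585 bp in control (chr16:88518049-88520633, area 10163, top 1.96%), the peak with the largest area of the window in both lists. That region of RefSeq has 83.0% G and C in the 300 bases around the start, and none of the 4 motifs searched occurred in it: AGATAA or its variant TGATAA, the box CACCC, or the NF-E2 core TGAGTCA, which 4.95% of the promoters held.

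Inside ZFPM1, sites were divided differently in the lists. The widest shHMGA1 peak, 4270 bp (chr16:88524771-88529040), spanned a pair of control peaks of 1829 and 2052 bp, separated by 381 bp. At 2 other sites the reverse was seen: a control peak of 2090 bp about 15.4 kb after the start matched shHMGA1 peaks of 901 and 822 bp, and a control peak of 1655 bp about 19.5 kb after the start matched shHMGA1 peaks of 449 and 782 bp. The widest control peak, 3423 bp (chr16:88563515-88566937, area 6831, top 4.34%), matched an shHMGA1 peak of 3051 bp (area 6250, top 5.1%). Their summits were 17 bp apart at 44.6 kb after the start. Farther into the gene, the peaks of 3179 bp in shHMGA1 and 2759 bp in control overlapped, although their summits were 1781 bp apart.

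The 4 control-only peaks at ZFPM1 were mostly narrow or weak. Upstream of the gene, peaks of 206 bp (area 299, top 79.0%) and 437 bp (area 390, top 66.9%) had their summits 10.1 and 4.99 kb before the start. Within the gene, a peak of 531 bp (area 241, top 89.9%) had its summit 56.0 kb after the start. The exception was a peak of 1154 bp (chr16:88579078-88580231, area 1326, top 27.0%), 196 bp from the nearest shHMGA1 peak, so it bordered a site shared by both lists.

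GFI1B showed accessible sites from its start to well past its end, and the strongest lay downstream. Its window held 10 peaks covering 10740 bp in shHMGA1 and 11 peaks covering 10517 bp in control, and all 10 shHMGA1 peaks were shared. The widest and strongest was a downstream peak of 3255 bp in shHMGA1 (chr9:135877727-135880981, area 12982, rank 1101) and 3287 bp in control (chr9:135877429-135880715, area 12019, rank 1608). Its summits were 24.4 kb and 25.5 kb after the start. Other downstream peaks had summits 16.0 and 20.6 kb after the start in shHMGA1 (776 and 1316 bp wide) and 16.0 and 20.7 kb after it in control (731 and 1300 bp wide). The most distant, 43.8 kb after the start in both lists, measured 308 bp in shHMGA1 and 280 bp in control. In the mouse, elements downstream of Gfi1b are known enhancers in blood progenitors.

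At the start of GFI1B, peaks were modest beside the downstream one. The peak over the start measured 648 bp in shHMGA1 (chr9:135853906-135854553, area 847, top 39.5%) and 360 bp in control (chr9:135853869-135854228, area 407, top 65.0%), a width ratio of 1.8. A second peak about 820 bp before the start measured 769 bp in shHMGA1 (area 1052, top 33.3%) and 664 bp in control (area 1669, top 22.1%). Its summits were 2 bp apart. Inside the gene, a peak with its summit 5.66 kb after the start in shHMGA1 and 5.65 kb in control measured 1887 bp in shHMGA1 and 1526 bp in control. A weaker site before it, with summits 3.43 kb after the start in shHMGA1 and 4.11 kb in control, measured 525 and 661 bp. The single unshared peak, in control only, was 168 bp wide at 13.2 kb after the start (area 216, top 95.7%). About 5.9 kb before the start, a shared peak was 150 bp wide in shHMGA1 (area 205, top 98.7%) and 377 bp in control (area 570, top 51.9%).

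The RefSeq promoter of GFI1B (GRCh38.p14, plus strand, chr9:132978444-132978743) is printed for the start that these peaks cover, with capitals at its single TGATAA match.
GFI1B: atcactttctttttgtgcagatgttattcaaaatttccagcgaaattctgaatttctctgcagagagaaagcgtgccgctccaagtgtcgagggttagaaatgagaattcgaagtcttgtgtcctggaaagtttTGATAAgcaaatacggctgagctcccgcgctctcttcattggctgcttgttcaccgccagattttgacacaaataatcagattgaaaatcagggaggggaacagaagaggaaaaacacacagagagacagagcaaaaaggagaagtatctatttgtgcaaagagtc
The match begins 116 bases before the start. TGATAA occurred in 7.53% and AGATAA in 10.3% of the 35116 promoters. RefSeq lists another GFI1B start 33163 bp upstream, whose 300 bases held none of the 4 motifs. Counted from that other start, the peaks described above as before the start would lie inside the gene. A peak near the other start, 1106 bp in shHMGA1 and 1163 bp in control, covered the start of TSC1. That is the tuberous sclerosis gene, which points the other way.

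NFE2 had the most peaks for the size of its window of the 5 loci. Its 50 kb held 11 peaks covering 8851 bp in shHMGA1 and 12 peaks covering 9531 bp in control, with 73.0% of covered bases common. The start was covered by a peak of 520 bp in shHMGA1 (chr12:54694581-54695100, area 1606, top 23.5%) and 791 bp in control (chr12:54694542-54695332, area 2028, top 18.5%), with summits 10 bp apart. Leaving aside peaks at neighbouring genes, the largest area lay upstream, with the summit 3318 bp before the start at the same base in both lists. That peak measured 1291 bp in shHMGA1 (area 5190, top 6.79%) and 1462 bp in control (area 6237, top 5.03%). Another upstream peak, 6081 bp before the start in shHMGA1 and 6172 bp in control, measured 789 and 774 bp.

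Within the NFE2 gene, 3 accessible sites were present in both lists. The site nearest the start had summits 3071 bp after it in shHMGA1 and 3160 bp in control, with widths of 418 and 407 bp. In the middle of the gene a peak of 872 bp in shHMGA1 matched control peaks of 481 and 409 bp, and farther on a peak of 778 bp in shHMGA1 matched 1335 bp in control. The window had 1 unshared peak in each list. The shHMGA1-only peak, 542 bp wide and 749 bp before the start (area 208, top 98.0%), was 266 bp from a control peak. The control-only peak, 188 bp wide and 14.2 kb after the start (area 206, top 98.3%), was 564 bp from an shHMGA1 peak. Both were among the weakest peaks of their lists. The widest peak of the window, also the one of largest area, measured 1743 bp (area 11443, top 1.41%) in shHMGA1 and 1908 bp (area 11230, top 1.53%) in control. It covered the starts of CBX5, encoding a heterochromatin protein, and HNRNPA1, encoding an RNA-binding protein.

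KLF1 was the 1 member without a peak within 1000 bp of its start in either list. The nearest peak, inside the gene, ended 1023 bp from the start in shHMGA1 and 1107 bp from it in control. Both distances lie close to the limit of 1000 bp, and the starts used carry an error of up to about 110 bp over all members (at most 69 bp in the spacings of KLF1), so the absence of a peak within the limit is uncertain in both lists. The peak measured 642 bp in shHMGA1 (chr19:12996353-12996994, area 503, top 57.5%) and 518 bp in control (chr19:12996393-12996910, area 517, top 55.5%), and the lists' summits were 224 bp apart. The other peak of the window, 799 bp in shHMGA1 (area 2639, top 14.9%) and 769 bp in control (area 3026, top 12.6%), covered the start of the neighbouring gene GCDH, a mitochondrial dehydrogenase. Of the bases covered in either list, 86.5% were common. Peak density was 6.67 per 100 kb in both lists, the lowest of the 5 windows.

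The RefSeq promoter of KLF1 (GRCh38.p14, minus strand, chr19:12887152-12887451) is given beside those of GATA1 and GFI1B because no peak lay at this start. Capitals mark TTATCA, which is TGATAA on the opposite strand, and GGGTG, which is CACCC on the opposite strand.
KLF1: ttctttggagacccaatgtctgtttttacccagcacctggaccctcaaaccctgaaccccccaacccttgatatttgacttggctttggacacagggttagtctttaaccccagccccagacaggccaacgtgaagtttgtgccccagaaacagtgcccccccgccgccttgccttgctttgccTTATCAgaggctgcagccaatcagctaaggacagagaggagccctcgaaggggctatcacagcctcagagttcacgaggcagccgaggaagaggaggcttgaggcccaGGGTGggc
The GATA-type match begins 66 bases before the start, and the CACCC match 42 bases after it. Such letters were thus present both at a start with a peak, that of GFI1B, and at one without, that of KLF1.

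Most unshared peaks ranked low by area in their own list, both at the loci and over the whole lists. Of all unshared peaks, 711 of 16682 in shHMGA1 and 1952 of 31635 in control lay at or above the list median area. At or above the median area of their list lay 30 of the 44 shHMGA1 peaks (68.2%) and 35 of the 48 control peaks (72.9%), and 11 (25.0%) and 12 (25.0%) lay in the top 10%. Above the list median, 0 of the 30 shHMGA1 peaks and 2 of the 35 control peaks were unshared, against 1.26% and 3.07% of such peaks over the whole lists. Those 2 were the control-only peaks at the 3′ end of GATA1 and beside a shared site in ZFPM1. These counts are too small to set the loci apart from the lists.

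**Figure D3:**
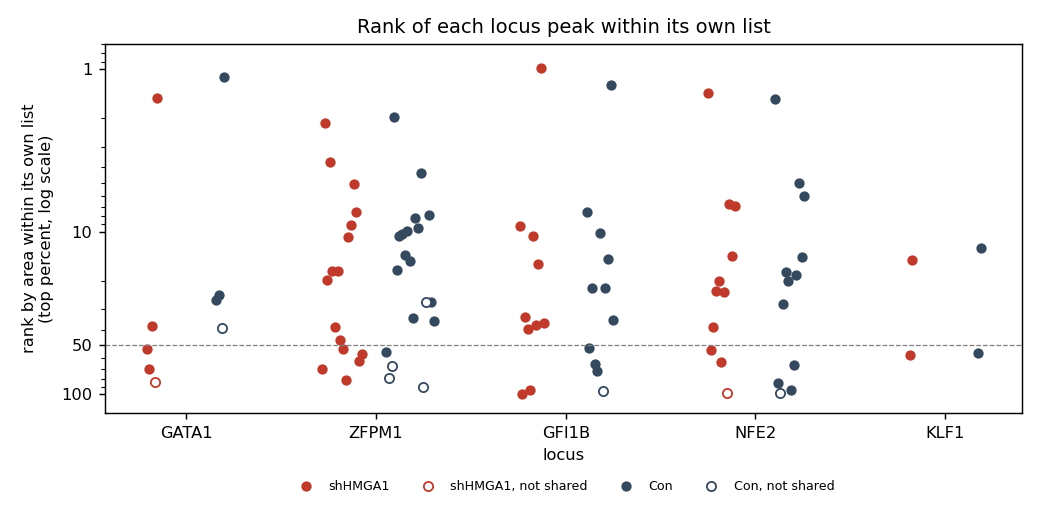
Rank by area of each peak within its own list, for shHMGA1 (left of each pair) and Con; the vertical axis is the top percent on a log scale, with the strongest peaks at the top and a dashed line at the list median. Open circles are unshared peaks, and 7 of the 9 lie below the dashed line.

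Widths at matching sites varied in both directions. Of the 34 sites matched one to one, the peak in shHMGA1 was wider at 14, narrower at 19 and equal at 1, and the median log2 width ratio of shHMGA1 over control was -0.05, against -0.03 for 83581 such sites in all. The shHMGA1 peak was at least 1.5-fold wider at 3 sites (9.8% of all such sites in the lists) and at least 1.5-fold narrower at 5 sites (13.8% in the lists). The wider sites were those over the GFI1B start, 11.9 kb after the ZFPM1 start (1377 bp in shHMGA1 and 831 bp in control) and about 15 kb after the NFE2 start (496 bp in shHMGA1 and 176 bp in control, the largest ratio at 2.82). The narrower sites were 2 at ZFPM1 (22.4 and 72.9 kb from the start), 2 at NFE2 (over the start and 6.71 kb after it) and the peak about 5.9 kb before GFI1B, with the smallest ratio at 0.398.

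Summits lay close together at most of the matched sites. They were within 50 bp of each other at 21 of the 34 sites (61.8%), against 73.5% of all such sites. The median shift was 29 bp at the loci and 20 bp over all such sites. With only 34 sites and no interval computed, the loci are not shown to differ from all such sites in this. The median shift was 14 bp over 9 NFE2 sites and 42 bp over 11 ZFPM1 sites. Shifts of over 1 kb were seen in the 2 broad peaks of ZFPM1 and GFI1B described above.

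**Figure D4:**
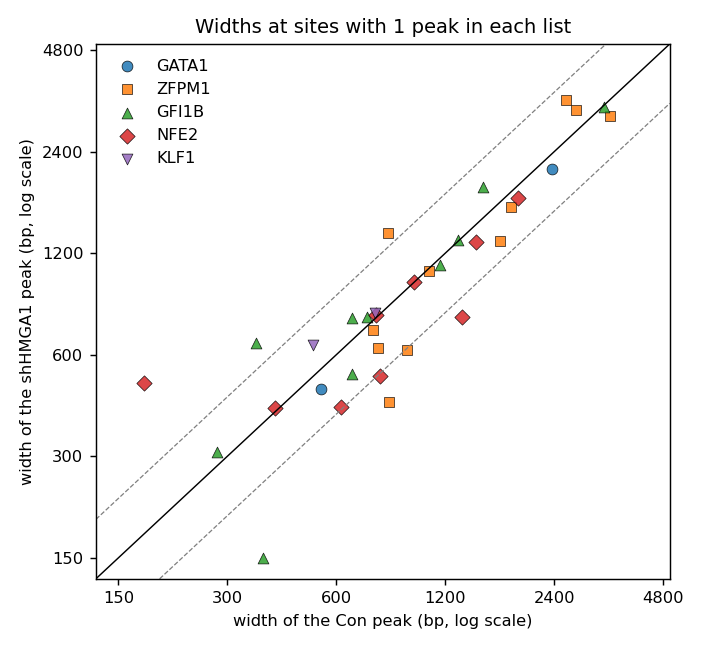
Width of the shHMGA1 peak against that of the Con peak (bp, log scales) at the 34 sites with 1 peak in each list, by locus. The solid line is equal width and the dashed lines are 1.5-fold wider and narrower; 8 sites lie outside them.

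Other genes, both regulators and lineage genes such as ITGA2B, EPOR and ALAS2, were counted in the same way. The starts of these genes and of the cell type genes below were not checked against neighbouring genes. Distances at them therefore carry an unknown error. Of 12 further genes (GATA2, TAL1, LMO2, LDB1, RUNX1, FLI1, GFI1, SPI1, MYB, EPOR, ITGA2B and ALAS2), 11 had a peak within 1000 bp of the start in both lists; the share of all gene starts with such a peak was not computed, so this count has no background. The exception was ALAS2, the erythroid enzyme of haem synthesis, whose nearest peaks were 2661 bp away in shHMGA1 and 2640 bp in control. Within 10 kb of the 12 starts there were 48 peaks in each list, with more in shHMGA1 at 3 genes, fewer at 4 and equal numbers at 5. At the 5 member starts the same distance held 21 peaks in shHMGA1 and 22 in control. The widest differences, named after their values were seen, were at FLI1, an ETS factor of megakaryocytes, with 8 peaks in shHMGA1 and 4 in control, and at RUNX1, a regulator of blood stem cells, with 5 in shHMGA1 and 8 in control. The peak over the FLI1 start measured 1251 bp in shHMGA1 and 2484 bp in control, and that over the RUNX1 start 4036 and 1048 bp. Whether these counts differ through peaks split or joined, rather than through sites in 1 list only, was not tested.

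Starts of genes that mark cell types gave a mixed picture in both lists. The share of all gene starts with a peak within 1000 bp was not computed, so these counts have no background either. ITGA2B, EPOR, ALAS2 and SPI1 were also among the further genes counted above. Of 4 megakaryocyte genes, 3 (ITGA2B, GP1BA and GP9) had a peak within 1000 bp of the start in each list, and PF4 did not. Of 4 erythroid genes, EPOR did, and HBB, ALAS2 and SLC4A1 did not. Of 3 granulocyte and monocyte genes only SPI1 did, and the hepatocyte gene ALB did not. Of 2 lymphoid genes, CD79A had an shHMGA1 peak of 190 bp at 431 bp from the start (area 249, top 88.3%) and none in control, and CD3E had none in either list.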

How the data were processed

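The lists were deposited in narrowPeak format, and each was given its group from its name. Per the submitters' processing notes, peaks were called with Genrich on hg19. Not given in the sources used here: the aligner, Genrich's version and settings, and how a group's samples were pooled. In the authors' lists, the deposited score used to rank peaks is Genrich's area under the curve of significance, and the value at the summit is a −log10 p not adjusted for multiple tests, used to filter peaks in 2 alternatives. The deposited files hold no counts, so depth is unknown.

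Peaks overlapping each window were taken, and a peak was shared at 1 bp of overlap with the other list. Shares have exact Clopper-Pearson 95% intervals. The hg19 gene starts were entered by hand from general knowledge, since no hg19 annotation was used here. They were checked against RefSeq GRCh38: 26 of 35 gene lengths agree within 250 bp, and 7 spacings between members and neighbours differ by at most 110 bp. The spacings used the pair of RefSeq starts that matched best where a gene has more than 1. Distances from the starts used at the members carry an error of that order. Among the members, the gene length differs by 34917 bp at GFI1B, for which RefSeq lists another start upstream, and by 3413 bp at ZFPM1. The further genes and the cell type genes were checked by length only, and a matching length does not place a start. Their lengths differ by as much as 5951 bp at GP9 and 6461 bp at LDB1, so the error of their distances is unknown. Promoters of 4 of the 5 members were matched by symbol. In each locus the peaks named were the one at the start, the widest, the one of largest area and every unshared one; others were named after their values were seen. Members and lists were chosen with earlier results of these data known, and 3 listed genes are not reported here. As a check of the code, the control list was compared with a copy of itself from which 5000 peaks had been removed. There, 0 of 127153 peaks got a wrong shared state. The kept peaks were identical in both, so this checks the counting only, not sharing between lists whose peak edges differ. Tables used pandas 2.3.3 and numpy 2.4.6, intervals scipy 1.17.1 and plots matplotlib 3.10.9, under Python 3.11.15.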

Additional observations from a re-analysis of the deposited data

How the results depend on the processing

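The ratio of shHMGA1 to control peaks at the loci was 0.8 to 0.966 under the 12 alternatives that changed the peaks, against 0.917. The ratio of covered bases was 0.856 to 1.0, against 0.922, and came to 1.0 when only 10 kb on either side of each gene start was counted. That window left 21 shHMGA1 and 22 control peaks, with 2 unshared in each list, against 2 in shHMGA1 and 7 in control over the whole windows. Reciprocal overlap of 50% lowered sharing to 70.5% of shHMGA1 and 64.6% of control peaks, leaving 13 and 17 unshared; over the whole lists 70.4% and 62.3% were shared by that rule. A filter at the joined median summit significance, and the 56305 most significant peaks of each list, each left 28 shHMGA1 peaks. Under both, and under a filter at the joined median area, 1 shHMGA1 peak was unshared, the one over the GFI1B start, which is shared without the filter, and 0 of the 2 shHMGA1-only peaks passed. Of the control-only peaks under these filters (7, 5 and 6 in the same order), 1, 0 and 2 were control-only without a filter. The number of shHMGA1-only peaks was also 1 with a gap of 500 bp counted as shared, and without the GATA1 or the NFE2 locus. Without the ZFPM1 locus, 28 shHMGA1 and 29 control peaks were left, 3 of them control-only in place of 7. Leaving out peaks at neighbouring gene starts, chosen after seeing the data, gave a ratio of peaks of 0.907. Apart from the removal of peaks by a filter or a smaller window, the cause of these changes was not tested. No paired analysis was possible because the samples are numbered in the labels but the deposited lists give 1 set of peaks per group with no values per sample, which also means that leaving out a replicate could not be tried. Unknown depth limits every count of weak peaks.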
